A study of Mus musculus with 6 samples.

Results

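The tetraspanins of B cells and plasma cells described here are 10 genes of the deposited expression table, Cd9, Cd37, Cd53, Cd63, Cd82, Cd151, Tspan3, Tspan13, Tspan32 and Tspan33, out of 35275 listed genes. They were chosen by name, and each name matched 1 row. Expression was measured by RNA sequencing of B cells isolated from the spleens of C57BL/6 mice, 6 to 8 weeks old, that carried the CD40LΔ5 allele or were wild type (WT). The labels do not describe the change in CD40 ligand, the T cell protein that engages CD40 on B cells. All mice had received an injection of sheep red blood cells (SRBC), which start germinal centre reactions that need T cell help, and spleens were taken on day 8, so there was no group without antigen. Each label held 3 libraries, and nothing says whether each came from its own animal, so p-values measure only the spread between these libraries. The design asks how the genotypes differ during the response.

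Tetraspanins are small membrane proteins that cross the membrane repeatedly and carry a large extracellular loop with a conserved cysteine motif. They bind integrins, immunoglobulin superfamily receptors, proteases and one another, and gather them into membrane microdomains. On B cells they organise integrins and other receptors, and others of the family sort cargo in endosomes. In mice, Cd37 is needed for normal antibody responses to T cell-dependent antigens, and Cd9 marks marginal zone B cells, B1 cells and plasma cells.

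The deposited sources did not group the libraries alike, and this bears on every direction given here. A second file, the authors' deposited table of means, has a column MUT and a column WT. The MUT column equals the mean of the libraries labelled CD40LΔ5 replicate 2, WT replicate 1 and WT replicate 2, here called the MUT set. The WT column equals the mean of CD40LΔ5 replicates 1 and 3 and WT replicate 3, here called the WT set. Only 2 of the 6 libraries had the same group in both, and each comparison is given both ways, with libraries always named by label. CD40LΔ5 replicate 2 and WT replicate 1 also stood apart from the rest by their low Ighg1, the IgG1 constant region, at 111 and 149 FPKM against 4054 to 26754 FPKM in the other libraries. Reads on genes numbered 24320080 to 27866611 per library. All 8 genes of a B cell list were above 1 FPKM in the mean, led by Cd79a at 1510 to 1999 FPKM over the 6 libraries.

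The promoters of 4 members are shown because they belong to the most abundant pair (Cd37, Cd53), to the one member with an octamer motif (Tspan13) and to the member with the largest difference between the sets of the table (Cd9). The sequences are from RefSeq, build GRCm38.p6, and run from 250 bases before to 50 bases after the RefSeq gene start, 5′ to 3′ on the strand of the gene. All 4 genes lie on the minus strand. The windows are chr7:45238790-45239089 for Cd37, chr3:106790100-106790399 for Cd53, chr12:36042429-36042728 for Tspan13 and chr6:125494711-125495010 for Cd9. RefSeq starts can differ from the deposited gene ends. The whole Cd37 window lies inside the deposited gene, whose 5′ end on the minus strand is at 45239115. The deposited 5′ ends of Tspan13 and Cd9, 36042500 and 125494791, lie within their windows, upstream of the RefSeq starts. Capitals mark matches on either strand to the octamer ATTTGCAT, to AGGAAGT as an Ets and PU.1 core, to the CCAAT box, to the TATA box TATAAA and to the GC box GGGCGG. No motif overlapped another in these 4 windows.
Cd37: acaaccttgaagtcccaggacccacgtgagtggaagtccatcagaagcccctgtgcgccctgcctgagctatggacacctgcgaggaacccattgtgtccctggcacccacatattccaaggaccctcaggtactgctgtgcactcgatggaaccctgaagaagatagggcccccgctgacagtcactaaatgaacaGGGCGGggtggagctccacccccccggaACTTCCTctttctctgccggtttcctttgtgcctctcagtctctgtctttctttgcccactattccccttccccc
Cd53: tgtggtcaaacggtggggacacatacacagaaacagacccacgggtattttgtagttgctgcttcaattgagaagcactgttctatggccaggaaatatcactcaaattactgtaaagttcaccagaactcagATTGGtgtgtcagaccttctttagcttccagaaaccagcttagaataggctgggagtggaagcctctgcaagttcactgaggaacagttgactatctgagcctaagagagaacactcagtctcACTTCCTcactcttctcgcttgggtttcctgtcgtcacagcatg
Tspan13: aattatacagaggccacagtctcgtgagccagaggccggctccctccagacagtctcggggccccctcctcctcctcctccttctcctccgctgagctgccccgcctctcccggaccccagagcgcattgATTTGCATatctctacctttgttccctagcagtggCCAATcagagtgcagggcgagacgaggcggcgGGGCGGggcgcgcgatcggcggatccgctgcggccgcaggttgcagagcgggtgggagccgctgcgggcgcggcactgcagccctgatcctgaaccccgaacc
Cd9: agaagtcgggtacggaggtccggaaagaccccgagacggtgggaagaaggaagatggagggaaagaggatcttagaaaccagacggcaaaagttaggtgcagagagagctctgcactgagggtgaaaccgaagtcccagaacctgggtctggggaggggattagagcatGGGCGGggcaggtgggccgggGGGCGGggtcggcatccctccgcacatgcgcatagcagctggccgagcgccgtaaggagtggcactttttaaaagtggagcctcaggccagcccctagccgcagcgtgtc
The windows of Cd37 and Cd53 each held 1 match to AGGAAGT on the opposite strand, 25 bases before the RefSeq start in Cd37 and 6 bases after it in Cd53. AGGAAGT or its complement occurred in 9.35% of the 32851 windows of this length in the table. The octamer lay 120 bases before the start of Tspan13, and 1.74% of all windows held one. The Cd9 window held 2 GC boxes, which 35.7% of all windows had at least once. TATAAA was found in none of the 14 windows of the 10 members and in 13.6% of all windows. CCAAT was found in 5 of the 14 windows, against 37.4% of all windows, and the GC box in 7 of the 14. A match is a string of letters and was not tested as a binding site.

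The 10 members averaged between 1.82 and 478 FPKM, and 5 of them lay at 58.1 FPKM or above in every library. FPKM is per kilobase of the deposited gene length, whichever transcripts a gene expressed, so levels of different genes can be set side by side only roughly. By the mean over the 6 libraries the order was Cd37, Cd53, Cd82, Tspan13, Tspan32, Cd9, Tspan3, Cd151, Cd63 and Tspan33. Cd37 averaged 478 ± 71.4 FPKM (SD, n = 6), above 98.6% of the 11252 genes whose mean reached 1 FPKM, which are the genes tested below. Cd53 averaged 228 ± 10.5 FPKM and Cd82 83.0 ± 10.6 FPKM. Tspan33, the lowest, averaged 1.82 ± 0.652 FPKM, above 9.59% of these genes. All 10 members passed this level, and Tspan33 did so on 83 to 240 reads per library.

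Of the 9 pairs of neighbours in this order, 3 were apart over the whole range of the 6 libraries, namely Cd37 above Cd53, Cd53 above Cd82 and Tspan32 above Cd9. Cd82 and Tspan13 did not differ beyond their spread, and Cd82 was the higher of the pair in 2 of 6 libraries. Tspan13 exceeded Tspan32 in 5 of 6 libraries and Cd151 exceeded Cd63 in 4 of 6. Ranges also overlapped for Cd9 and Tspan3, for Tspan3 and Cd151 and for Cd63 and Tspan33, but the order within a library was the same in 6 of 6 for each of these pairs. The sum of the 10 members was 885 to 1071 FPKM per library, of which Cd37 made up 42.7% to 54.4%.

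**Figure D1:**
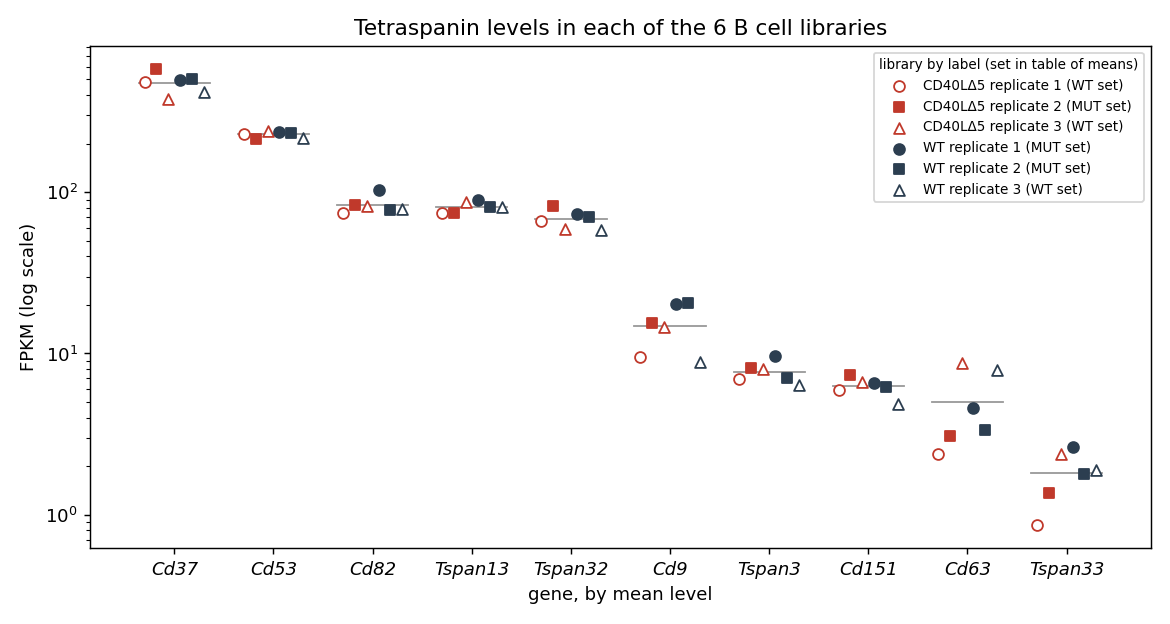
FPKM (log scale) of each member in each library, with the mean over 6 libraries as a grey line; colour gives the label, filled symbols the MUT set and open symbols the WT set of the table of means. Cd37 stands at 378 to 583 FPKM above all others, and Cd9, Cd63 and Tspan33 have the widest spread.

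Cd37, Cd53 and Tspan32 are tetraspanins of blood cells. Cd37 (ENSMUSG00000030798, chromosome 7, 45233632 to 45239115, minus strand) is the leukocyte tetraspanin most abundant on mature B cells. It measured 481, 583 and 378 FPKM in CD40LΔ5 replicates 1, 2 and 3, against 498, 506 and 420 FPKM in WT replicates 1, 2 and 3. The labelled groups overlapped, since the highest and the lowest library both carried the CD40LΔ5 label. The log2 difference was -0.00 ± 0.18 (SE; 95% interval -0.44 to 0.44). By the sets of the table Cd37 averaged 529 ± 46.4 FPKM in the MUT set and 426 ± 51.8 FPKM in the WT set (SD, n = 3), a ratio of 1.24. Here the sets did not overlap, with every MUT set library above every WT set library. The log2 difference of 0.31 ± 0.13 did not pass over all genes (limma adjusted p = 0.370).

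Tspan32 (ENSMUSG00000000244, chromosome 7, 143005046 to 143019644, plus strand), also known as Tssc6, restrains T cell proliferation in mice. It measured 66.1, 82.1 and 59.2 FPKM in CD40LΔ5 replicates 1 to 3, against 73.6, 69.8 and 58.1 FPKM in WT replicates 1 to 3. CD40LΔ5 replicate 2 was the highest and WT replicate 3 the lowest, and the labelled groups overlapped (log2 difference 0.04 ± 0.15 SE). In the sets of the table the means were 75.2 ± 6.30 FPKM for the MUT set and 61.1 ± 4.36 FPKM for the WT set (SD, n = 3), with no overlap. This log2 difference of 0.29 ± 0.09 did not pass either (limma adjusted p = 0.352). Tspan32 and Cd37 had the highest correlation among the 45 pairs of members (r = 0.94 on log2(FPKM + 1) over 6 libraries), a description of libraries that also share depth and cell composition. Tspan32 lies 0.0331 Mb from Cd81, another tetraspanin gene, with no listed gene between them.

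Cd53 (ENSMUSG00000040747, chromosome 3, 106758861 to 106790149, minus strand), a pan-leukocyte tetraspanin that takes part in lymphocyte homing in mice, was the steadiest member. It measured 230, 214 and 238 FPKM in CD40LΔ5 replicates 1 to 3, against 237, 233 and 217 FPKM in WT replicates 1 to 3. Its coefficient of variation was 4.61%, and 4.48% of the tested genes had a smaller one. The groups overlapped both ways, with a log2 difference of -0.01 (95% interval -0.24 to 0.22) by the labels and of -0.00 (-0.21 to 0.20) by the table. The ratio of Cd37 to Cd53 was 1.59 to 2.73 with the CD40LΔ5 label and 1.94 to 2.17 with the WT label.

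**Figure D2:**
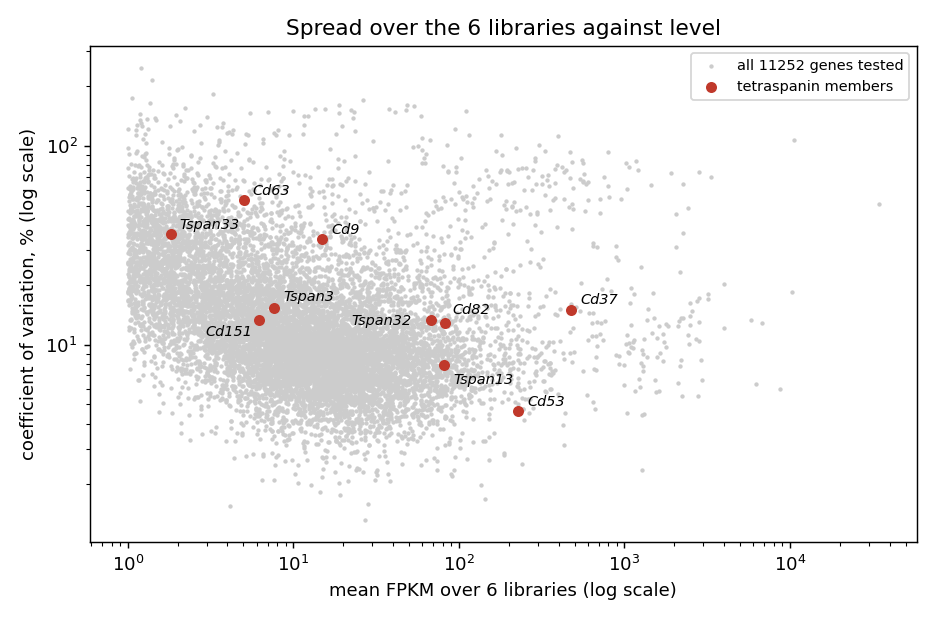
Coefficient of variation over the 6 libraries, in percent, against mean FPKM, both on log scales, for the 11252 genes tested (grey) and the 10 members (red). Cd53 lies low in the cloud at 4.61%, Cd63 near its upper edge at 53.4%.

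Cd9, Cd82 and Cd151 are tetraspanins known for binding integrins and for roles in adhesion. Cd9 (ENSMUSG00000030342, chromosome 6, 125460266 to 125494791, minus strand) measured 9.50, 15.3 and 14.7 FPKM in CD40LΔ5 replicates 1 to 3, against 20.3, 20.5 and 8.91 FPKM in WT replicates 1 to 3. CD40LΔ5 replicate 1 and WT replicate 3 were low and WT replicates 1 and 2 high, so the labelled groups overlapped (13.2 ± 3.20 against 16.6 ± 6.65 FPKM, SD, n = 3; log2 difference -0.25 ± 0.33 SE). By the table the MUT set averaged 18.7 ± 2.94 FPKM and the WT set 11.0 ± 3.17 FPKM, a ratio of 1.70 and the largest difference of any member in that comparison. The sets did not overlap, although CD40LΔ5 replicate 2 of the MUT set and CD40LΔ5 replicate 3 of the WT set were close. The log2 difference of 0.73 ± 0.20 (95% interval 0.27 to 1.20) did not pass over all genes (limma adjusted p = 0.343).

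Cd82 (ENSMUSG00000027215, chromosome 2, 93419111 to 93463140, minus strand), which suppresses metastasis of tumour cells and steers integrin trafficking, measured 73.8, 83.0 and 81.6 FPKM in CD40LΔ5 replicates 1 to 3, against 104, 77.4 and 78.7 FPKM in WT replicates 1 to 3. WT replicate 1 stood above the rest, and the other 5 libraries lay within 73.8 to 83.0 FPKM. The groups overlapped by the labels (log2 difference -0.11 ± 0.13 SE) and by the table (0.16 ± 0.12). Without WT replicate 1 the difference became 0.02 by the labels and 0.04 by the table.

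Cd151 (ENSMUSG00000025510, chromosome 7, 141467362 to 141471479, plus strand), a partner of laminin-binding integrins, measured 5.94, 7.32 and 6.64 FPKM in CD40LΔ5 replicates 1 to 3, against 6.55, 6.16 and 4.86 FPKM in WT replicates 1 to 3. WT replicate 3 was the lowest library, and groups overlapped both ways. The log2 difference was 0.16 ± 0.13 by the labels and 0.18 ± 0.12 by the table, and neither passed (limma adjusted p = 0.999993 and 0.522).

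Cd63 and Tspan3 are tetraspanins of intracellular membranes as well as of the cell surface. Cd63 (ENSMUSG00000025351, chromosome 10, 128908919 to 128912816, plus strand) sits in late endosomes, exosomes and the granules of neutrophils, mast cells and basophils. It measured 2.39, 3.09 and 8.72 FPKM in CD40LΔ5 replicates 1 to 3, against 4.59, 3.33 and 7.92 FPKM in WT replicates 1 to 3. The third replicate of each label was thus high, with exact Poisson intervals of 7.63 to 9.93 FPKM and 6.87 to 9.08 FPKM that lay above those of the other 4 libraries. These 95% intervals cover counting error only. The labelled groups overlapped (log2 difference -0.23 ± 0.44 SE), and so did the sets, at 3.67 ± 0.807 FPKM for the MUT set and 6.35 ± 3.45 FPKM for the WT set (SD, n = 3; log2 difference -0.52 ± 0.39 SE). Within the WT set CD40LΔ5 replicate 1 had the lowest Cd63 of all libraries.

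The 2 libraries with the highest Cd63 also had the highest levels of 9 of 10 neutrophil markers. The exception was Retnlg, at 32.1 FPKM in CD40LΔ5 replicate 3 and 18.5 FPKM in WT replicate 3, while its highest level was 36.3 FPKM in WT replicate 1, closely followed by CD40LΔ5 replicate 2. The summed level of the 10 neutrophil markers was 56.7, 114 and 594 FPKM in CD40LΔ5 replicates 1 to 3, against 109, 83.8 and 328 FPKM in WT replicates 1 to 3. No marker of this list was at 0 in all libraries, and S100a8, a calcium-binding protein of mature neutrophils, reached 199 FPKM in CD40LΔ5 replicate 3 and 99.2 FPKM in WT replicate 3. The plasma cell list had 13 of 14 entries found, and the other, Jchain, is a newer name of Igj. The plasma cell sum was 2311, 1264 and 5189 FPKM in CD40LΔ5 replicates 1 to 3. In WT replicates 1 to 3 it was 1495, 5326 and 5118 FPKM. It was highest in WT replicate 2, which had the fourth-highest Cd63. Igj and Mzb1 made up most of that sum, at 3627 and 1106 FPKM in WT replicate 2. Of the 13 plasma cell genes found, 6 had the same 2 highest libraries as Cd63, beside 9 of the 10 neutrophil markers. The part of either cell type in the Cd63 values was not tested. In bulk samples, fewer cells of a type and less RNA per cell cannot be told apart.

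Tspan3 (ENSMUSG00000032324, chromosome 9, 56135885 to 56161070, minus strand), a widely expressed tetraspanin, measured 6.90, 8.11 and 8.06 FPKM in CD40LΔ5 replicates 1 to 3, against 9.61, 7.04 and 6.33 FPKM in WT replicates 1 to 3. As with Cd82, WT replicate 1 was the highest library. The groups overlapped both ways, with a log2 difference of 0.02 ± 0.15 by the labels and of 0.19 ± 0.13 by the table. Tspan3 and Cd82 correlated at r = 0.88 over the 6 libraries.

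Tspan13 and Tspan33 complete the list. Tspan13 (ENSMUSG00000020577, chromosome 12, 36014557 to 36042500, minus strand) measured 74.5, 74.3 and 87.2 FPKM in CD40LΔ5 replicates 1 to 3, against 89.9, 80.9 and 81.3 FPKM in WT replicates 1 to 3. The range was narrow, with a coefficient of variation of 7.85%, and the groups overlapped both ways. The log2 difference was -0.10 ± 0.10 by the labels and 0.01 ± 0.10 by the table, and the sign by the table turned with the scaling of the libraries.

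Tspan33 (ENSMUSG00000001763, chromosome 6, 29694222 to 29718559, plus strand) belongs to the TspanC8 subgroup, which brings the protease ADAM10 to the cell surface, and is needed for normal red cell production in mice. It measured 0.858, 1.36 and 2.37 FPKM in CD40LΔ5 replicates 1 to 3, against 2.64, 1.78 and 1.89 FPKM in WT replicates 1 to 3. CD40LΔ5 replicate 1 was lowest, and its Poisson interval of 0.684 to 1.06 FPKM lay below those of the other 5 libraries. The labelled groups overlapped through CD40LΔ5 replicate 3 (log2 difference -0.33 ± 0.24 SE), and the sets overlapped widely (0.13 ± 0.26). CD40LΔ5 replicate 1 was also the library with the lowest sum of erythroid markers, at 318 FPKM against 635 to 1199 FPKM in the other libraries. Of the 12 erythroid markers 11 were found and none was at 0. The neutrophil, natural killer, dendritic cell and platelet sums were lowest in this library too, at 56.7, 20.5, 71.8 and 8.19 FPKM. Those of the remaining marker lists were not. The part of any of these cells in the Tspan33 values was not tested. Adam10, which encodes that protease, was chosen after its values were seen and did not follow Tspan33. It measured 40.9, 34.7 and 42.8 FPKM in CD40LΔ5 replicates 1 to 3, against 44.1, 32.6 and 43.4 FPKM in WT replicates 1 to 3.

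By the labels, 0 of the 10 members passed the test, as did 0 of all genes (0% called). The test was limma on log2(FPKM + 1) with Benjamini-Hochberg adjustment over 11252 genes, and every member had an adjusted p of 0.999993. At an unadjusted p under 0.05 there were 0 members and 139 of all genes (1.24%), and limma voom on recovered reads also called 0 members and 0 genes. Of the members 3 had higher and 7 lower values in the libraries labelled CD40LΔ5, where 55.5% of all genes were higher. The median log2 difference of the members was -0.05, against 0.01 over all genes. In none of the 10 did the labelled groups stand apart, where 4.29% of all genes had groups that did not overlap. The widest 95% interval was that of Cd63, -1.27 to 0.82, so changes of that size could not be told from none.

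By the table, 0 of the 10 members and 3 of 11252 genes passed (0.0267% called). Of the members 8 had higher and 2 lower values in the MUT set, with a median log2 difference of 0.17, against 0.05 over all genes, of which 62.0% were higher. The sets did not overlap for Cd9, Cd37 and Tspan32, all higher in the MUT set, which is 3 of 10 members where 12.1% of all genes had the MUT set above the WT set. In the other direction there were 0 members and 4.79% of all genes. The same 3 had an unadjusted p under 0.05, where 9.39% of all genes did in that direction and 3.61% in the other. Without CD40LΔ5 replicate 2 and WT replicate 1, which leaves WT replicate 2 as the lone library of the MUT set, the log2 difference was 0.87 for Cd9, 0.25 for Cd37 and 0.19 for Tspan32. That fit assumes the lone library to vary like those of the WT set.

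**Figure D3:**
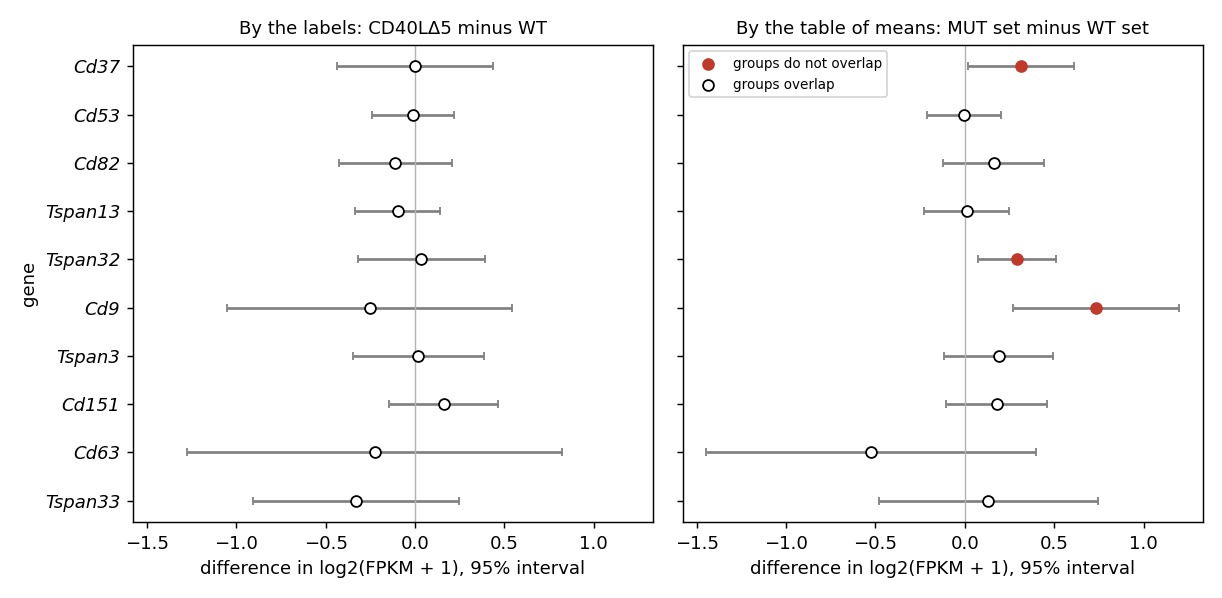
Difference in log2(FPKM + 1) of each member with its 95% interval from limma, left for CD40LΔ5 minus WT by the labels, right for MUT set minus WT set by the table of means. All intervals on the left span 0; on the right those of Cd9, Cd37 and Tspan32 (red, groups that do not overlap) lie above 0, and none passed the adjusted threshold.

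The 2 libraries with the lowest Cd9 were also those with the lowest macrophage sum, while the order of the other 4 differed. This was not particular to macrophages. The natural killer, dendritic cell and erythroid sums were lowest in the same 2 libraries, and the remaining marker lists were not. In CD40LΔ5 replicate 1 and WT replicate 3 these sums were 20.5 and 26.7, 71.8 and 71.9, and 318 and 635 FPKM. The macrophage and monocyte list had 12 of 13 entries found and none at 0. The entry not found, Adgre1, is a newer name of Emr1, which was found. The list summed to 138, 176 and 205 FPKM in CD40LΔ5 replicates 1 to 3. In WT replicates 1 to 3 the list summed to 359, 213 and 128 FPKM. Of its 12 genes found, 9 were lowest in CD40LΔ5 replicate 1 and WT replicate 3, as Cd9 was. Cd68, a lysosomal protein of macrophages, measured 8.77, 10.9 and 10.9 FPKM in CD40LΔ5 replicates 1 to 3, against 15.9, 13.2 and 8.55 FPKM in WT replicates 1 to 3. In the marginal zone list, Mzb1, which also stands in the plasma cell list, ran from 374 to 1106 FPKM. Without Mzb1 the other 7 genes summed to 390, 402 and 307 FPKM in CD40LΔ5 replicates 1 to 3, against 454, 355 and 322 FPKM in WT replicates 1 to 3. This sum was lowest in the third replicate of each label, and 0 of the 8 genes had the same 2 lowest libraries as Cd9. Cd1d1, the lipid-presenting molecule that is high on marginal zone B cells, measured 22.6, 35.6 and 18.5 FPKM in CD40LΔ5 replicates 1 to 3, against 31.9, 32.8 and 18.1 FPKM in WT replicates 1 to 3. As for Cd9, its MUT set libraries all lay above its WT set libraries (log2 difference 0.74 ± 0.10 SE; limma adjusted p = 0.149). The platelet list, of which Itgb3 and Pf4 passed 1 FPKM, summed to 8.19 to 10.5 FPKM under the CD40LΔ5 label and 9.34 to 11.9 FPKM under the WT label. That sum was lowest in CD40LΔ5 replicates 1 and 3. Of the 10 platelet genes, 3 had the same 2 lowest libraries as Cd9. Among them was Pf4, at 0.754 FPKM in CD40LΔ5 replicate 1 and 1.05 FPKM in WT replicate 3, against 1.51 to 1.94 FPKM in the others. The part of these cells in the Cd9 values was not tested.

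**Figure D4:**
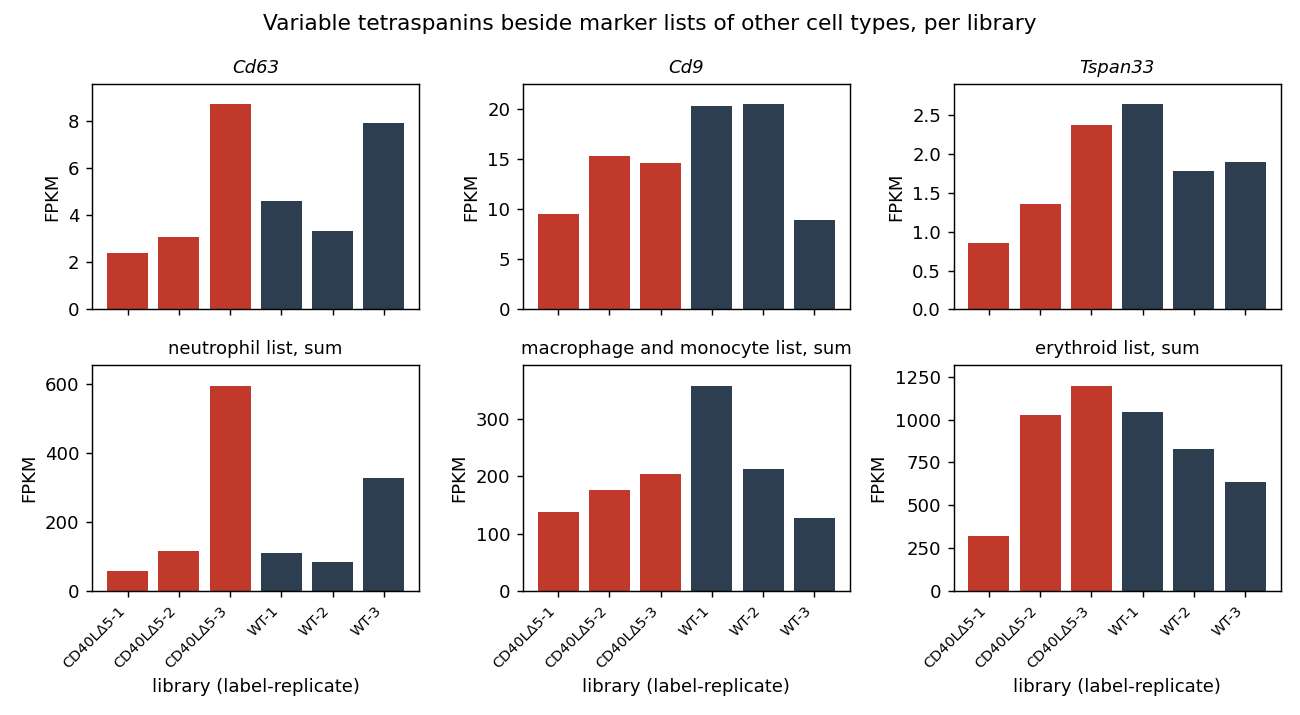
Upper row, FPKM of Cd63, Cd9 and Tspan33 in each library (CD40LΔ5 red, WT dark); lower row, summed FPKM of the neutrophil, the macrophage and monocyte, and the erythroid marker lists in the same libraries. Cd63 and the neutrophil sum are both highest in replicate 3 of each label, and Tspan33 and the erythroid sum are both lowest in CD40LΔ5 replicate 1. The neutrophil sum, and the natural killer, dendritic cell and platelet sums, which are not drawn, are lowest there too.

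Each member was also matched to the 3 genes whose log2(FPKM + 1) values ran most like its own over the 6 libraries, with immunoglobulin variable segments and predicted genes left out. Cd37 ran most like Dennd2d, H2-Q4 and Prr24 (r = 1.00 for each, rounded), and 238 genes had an r over 0.95 with it. Tspan32 ran most like Irak4, Chka and Il27ra (r = 0.99 or above). Cd9 ran most like Cetn2, Rpl19 and Plxnd1 (r = 0.99), with Plxnd1, a semaphorin receptor, at 3.08, 5.60 and 5.31 FPKM in CD40LΔ5 replicates 1 to 3, against 8.13, 6.98 and 2.69 FPKM in WT replicates 1 to 3. Cd63 ran most like Cd177, a neutrophil surface protein (r = 0.99), Cpa3, the carboxypeptidase of mast cells and basophils (r = 0.98), and Slc39a4 (r = 0.97). Cd177 and Cpa3 were low, at means of 1.67 and 1.33 FPKM. Tspan3 ran most like the tetraspanin gene Tspan4 (r = 1.00), Ccr1 and Syf2. Cd82 ran most like Pttg1ip (r = 1.00), the tetraspanin gene Tspan14 (r = 0.99) and Ormdl3. Tspan13 ran most like Tes, Suds3 and Cog6, Cd151 like Bach2os, Rnaseh2a and Zfp874b, and Tspan33 like Cox6b2, Gatm and Btd (r = 0.97 to 0.99). Cd53 had the least close neighbours, Smyd2 (r = 0.97), Phb (r = 0.95) and Ccbl2 (r = 0.94). These correlations rest on 6 libraries and are descriptions.

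Of 21 other tetraspanin genes, 10 passed 1 FPKM in the mean and 0 were called by either grouping. By the labels 4 had higher and 6 lower values in the libraries labelled CD40LΔ5 (median log2 difference -0.04), and 8 were higher and 2 lower in the MUT set by the table (median 0.10). Cd81, a widely expressed tetraspanin, was the most abundant of them. By mean level Cd81 stood between Cd53 and Cd82, and its range overlapped that of Cd82. It measured 80.5, 74.1 and 86.9 FPKM in CD40LΔ5 replicates 1 to 3, against 102, 86.9 and 89.5 FPKM in WT replicates 1 to 3. Every library labelled CD40LΔ5 lay below every library labelled WT, by a narrow margin, and the log2 difference of -0.20 ± 0.10 did not pass (limma adjusted p = 0.999993). Tspan2 went the other way, at 5.19, 4.94 and 4.31 FPKM in CD40LΔ5 replicates 1 to 3, against 3.87, 3.99 and 4.15 FPKM in WT replicates 1 to 3. Among TspanC8 genes, Tspan14 averaged 32.2 FPKM, well above Tspan33, and Tspan5 averaged 5.17 FPKM and Tspan15 2.91 FPKM. Tspan15 had the smallest p of this list by the table, with 3.62 ± 0.885 FPKM in the MUT set and 2.21 ± 0.190 FPKM in the WT set (SD, n = 3). Its log2 difference was 0.51 ± 0.16 (limma adjusted p = 0.352). Tspan31 averaged 13.2 FPKM. Tspan11 and Prph2, a photoreceptor tetraspanin, were listed at 0 in every library.

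Of 16 genes for proteins that bind tetraspanins, 15 were tested and 0 called by either grouping. By the labels 12 had higher and 3 lower values in the libraries labelled CD40LΔ5 (median log2 difference 0.05), and in the MUT set 6 were higher and 9 lower by the table (median -0.02). Itga4, the integrin alpha 4 chain with which Cd37 associates, measured 39.7, 38.0 and 44.4 FPKM in CD40LΔ5 replicates 1 to 3, against 36.5, 32.7 and 35.7 FPKM in WT replicates 1 to 3. Its groups did not overlap by the labels, yet the log2 difference of 0.21 ± 0.09 did not pass (limma adjusted p = 0.999993). Notch2, the receptor that marginal zone B cells need, measured 45.3, 43.1 and 43.8 FPKM in CD40LΔ5 replicates 1 to 3, against 41.4, 30.7 and 38.0 FPKM in WT replicates 1 to 3. Its labelled groups did not overlap either (log2 difference 0.27 ± 0.12 SE; limma adjusted p = 0.999993). Labelled groups stood apart for 3 of the 15 tested genes, all higher under the CD40LΔ5 label. Over all genes the share apart in either direction was 4.29%. Ifitm3, an interferon-induced membrane protein, had 15.9 to 21.5 FPKM in the MUT set and 7.60 to 15.3 FPKM in the WT set (limma adjusted p = 0.356). Lgals9, galectin 9, had 76.2 ± 15.1 FPKM in the MUT set and 58.9 ± 4.65 FPKM in the WT set (limma adjusted p = 0.384). The class II genes H2-Aa and H2-Ab1 were low in WT replicate 2, at 497 and 950 FPKM, against 1773 to 3072 FPKM and 2025 to 3170 FPKM in the other libraries.

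Of 12 genes of endosomes and exosomes, the compartments of Cd63, 11 were tested, with 5 higher and 6 lower by the labels, 6 higher and 5 lower by the table, and 0 called. Lamp1, Rab7 and Sdcbp, the most abundant, averaged 89.7, 71.6 and 63.2 FPKM and ran from 82.7 to 104 FPKM for Lamp1 and from 66.6 to 78.2 FPKM for Rab7, while Cd63 ran from 2.39 to 8.72 FPKM. Sdcbp, the exosome adaptor syntenin, was 62.4 to 63.3 FPKM under the CD40LΔ5 label and 57.7 to 71.0 FPKM under the WT label. The genes of smallest p were Rab27a and Hgs by the labels and Flot1 and Ap3b1 by the table, with log2 differences of -0.14 (Rab27a) to 0.14 (Flot1).

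The other marker lists had 0 called genes in either comparison. Over all genes tested, 55.5% were higher by the labels and 62.0% by the table. Genes of a list can rise and fall together, so counts within a list are descriptions. By the labels the counts of higher and lower genes were 7 and 1 for B cells, 3 and 5 for marginal zone, 3 and 3 for B1 and 8 and 1 for germinal centre B cells. They were 0 and 13 for plasma cells, 2 and 7 for T cells, 2 and 5 for natural killer cells, 0 and 10 for macrophages, 1 and 3 for dendritic cells, 0 and 2 for platelets, 0 and 11 for erythroid cells, 9 and 0 for neutrophils and 1 and 0 for stroma. By the table they were 8 and 0 for B cells, 7 and 1 for marginal zone, 4 and 2 for B1, 0 and 9 for germinal centre B cells and 0 and 13 for plasma cells. They were 7 and 2 for T cells, 7 and 0 for natural killer cells, 10 and 0 for macrophages, 3 and 1 for dendritic cells, 2 and 0 for platelets, 11 and 0 for erythroid cells, 1 and 8 for neutrophils and 1 and 0 for stroma. What share of any member's value came from these cells was not tested.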

How the data were processed

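The 6 libraries were made from splenic B cells isolated with a magnetic kit and from total RNA with a TruSeq RNA kit, per the labels' protocols. This kit does not mark the strand, so reads of the antisense genes Tspan32os (at most 126 reads) and Tead2 (at most 221 reads, overlapping Cd37) cannot be told apart from their partners. CASAVA 1.8.2, STAR, DESeq2 and the build mm9 appear in the submitters' processing notes, with no role for any of them. Which program counted reads, on which annotation and with which filters, is not given in the sources used here. Gene coordinates, printed as deposited, are those of GRCm38: 24919 of 35275 genes have exactly the start and end of GENCODE M21.

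The authors deposited FPKM values per library, and FPKM means in a table with the columns MUT and WT, and each column was traced to the 3 libraries that average to it (largest deviation 3.33e-08 FPKM). Whole reads were recovered from FPKM and the deposited gene length for 100% of values (tolerance 0.01 reads), so that 1 read on a 1 kb gene is worth 0.0359 to 0.0411 FPKM. Samples were mapped by their descriptions.

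Groups were compared with limma 3.58.1 (R 4.3.3), moderated with a mean trend, two-sided, on log2(FPKM + 1) of 11252 genes whose mean reached 1 FPKM, Benjamini-Hochberg adjusted over all of them, with a threshold of 0.05. Because of the added 1, log2 differences of low genes are understated. The procedure was checked on simulated data. Alternatives were other pseudocounts, filters and scalings, no trend, voom, a replicate block and libraries left out. The members, the 16 lists and the rules were chosen with earlier results of these data known. The rule named all members, the 3 nearest genes of each, and from each list the 3 most abundant and the 2 of smallest p per comparison; for marker lists only those beside a member's result are printed. Adam10 and Ighg1 are outside the rule and were chosen after their values were seen. Of the genes that bind tetraspanins, 1 named by the rule is not reported here.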

Additional observations from a re-analysis of the deposited data

How the results depend on the processing

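In both comparisons 0 members passed in each alternative run. All 10 were tested, except that the filter of at least 5 FPKM left 9, without Tspan33. Of all genes 0 passed by the labels in each alternative, while by the table the count of 3 became 5 with a pseudocount of 0.1, 1 without a filter, 0 with a mean of at least 5 FPKM, 0 without WT replicate 1 and CD40LΔ5 replicate 2 together, and 1 to 16 when 1 library was left out (16 without CD40LΔ5 replicate 1, 13 without WT replicate 2, 1 without CD40LΔ5 replicate 2). By the table Cd9 kept a log2 difference of 0.61 to 0.94, Cd37 of 0.23 to 0.40 and Tspan32 of 0.19 to 0.35 over all alternatives, with limma adjusted p of 0.274 to 0.845, 0.270 to 0.845 and 0.231 to 0.845. Signs near 0 turned. By the labels Tspan3 became -0.0026 with median-ratio scaling and -0.0036 with voom, and without WT replicate 1 and CD40LΔ5 replicate 2 together Cd53 became 0.058 and Tspan32 -0.025. By the table Tspan13 became -0.038 with median-ratio scaling, -0.035 with scaling without immunoglobulin genes and -0.043 with voom, and without those 2 libraries Cd53 became 0.031, Cd82 -0.011 and Tspan3 -0.0041. With 1 library left out, differences by the labels ran from -0.15 to 0.16 for Cd37, -0.050 to 0.033 for Cd53, -0.18 to 0.025 for Cd82, -0.094 to 0.14 for Tspan32, -0.092 to 0.17 for Tspan3 and -0.69 to 0.072 for Cd63. Without a change of sign they ran from -0.62 (without WT replicate 3) to -0.051 (without CD40LΔ5 replicate 1) for Cd9, -0.56 to -0.13 for Tspan33, -0.17 to -0.048 for Tspan13 and 0.050 to 0.23 for Cd151. By the table they ran from -0.040 to 0.043 for Cd53, -0.060 to 0.076 for Tspan13 and -0.12 to 0.31 for Tspan33, and without a change of sign from -1.01 (without CD40LΔ5 replicate 1) to -0.25 (without CD40LΔ5 replicate 3) for Cd63, 0.040 to 0.25 for Cd82, 0.086 to 0.29 for Tspan3 and 0.074 to 0.27 for Cd151. The cause of these turns was not tested beyond the library or scaling named. The order by level held in 10 of 10 places when CD40LΔ5 replicates 1, 2 or 3 or WT replicates 2 or 3 were left out, and in 8 of 10 without WT replicate 1 and by medians.

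The correlation of deviations between same-numbered libraries was -0.38, 0.058 and 0.38 for numbers 1, 2 and 3. The highest of any pair was 0.56, for CD40LΔ5 replicate 2 and WT replicate 1. With 3 libraries per label these values cannot settle whether the numbers pair the libraries. With the replicate block 0 members and 0 genes passed by the labels, and 210 genes in place of 139 had an unadjusted p under 0.05. The sets of the table share only replicate number 1, too few for a block. Depth limits Cd63 (61 to 228 reads) and Tspan33 most.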
